A study of Homo sapiens with 8 samples.

Results

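The genes described here are the BCL2 family of apoptosis regulators, followed in SJRH30 rhabdomyosarcoma cells kept in 1% oxygen for up to 24 h. They were chosen as every probe set whose annotated gene symbol is exactly PMAIP1, BBC3, BCL2L11, BID, BAD, BAX, BAK1, BCL2, BCL2L1 or MCL1. This gave 23 probe sets of 9 genes, among 22215 probe sets that are not controls. The probe set annotated with BBC3 also carries the symbols of the microRNA genes MIR3190 and MIR3191, so BBC3 was not analysed here. A probe set is a group of short probes on the array that reads 1 stretch near the 3′ end of a transcript, and a gene can have several.

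SJRH30 is an established alveolar rhabdomyosarcoma line, a tumour of the skeletal muscle lineage, and all 8 arrays come from this line with no other genetic change or agent named. At 0 h the cells had not yet entered hypoxia, and the other groups were taken after 6, 12 and 24 h in a chamber at 1% oxygen, with 2 replicates a time that the labels call biological. Nothing says whether these were separate cultures set up on separate days, so p-values measure the spread between the replicate arrays alone. The arrays include no culture held at normal oxygen for a matching period, so effects of hypoxia and of time itself cannot be told apart. The labels name the cell type as muscle fibroblasts. Of 8 rhabdomyosarcoma and skeletal myoblast markers 7 lay above the middle of the table, with MYOD1 at 11.99 and MYOG at 10.07 on the log2 scale, against 1 of 8 fibroblast markers (COL1A1, at 8.22), 0 of 3 leukocyte markers, 0 of 3 endothelial markers and 1 of 3 epithelial markers (EPCAM, at 6.79). EPCAM was also called higher at 24 h (0.41, limma adjusted p = 0.0192). Of the muscle markers, MYOG was called higher at 24 h (0.31, adjusted p = 0.0222) and CDH15 lower (-0.33, adjusted p = 0.0272). No fibroblast, leukocyte or endothelial marker was called against 0 h at any time.

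Proteins of the BCL2 family decide whether the outer mitochondrial membrane is opened, which releases cytochrome c and starts the caspase cascade. Effector proteins (BAX and BAK1) form the pores, anti-apoptotic proteins (BCL2, BCL2L1 and MCL1) hold the effectors in check, and BH3-only proteins (PMAIP1, BBC3, BCL2L11, BID and BAD) relay stress signals by binding one or the other. PMAIP1, also called NOXA, binds mainly MCL1 and is a target of the ATF4 branch of the stress response, and it has been described as a hypoxia-induced gene in other cells. RNA levels are read here, and much of the family's control acts on the proteins.

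All values are RMA values on the log2 scale, on which 1 unit is a factor of 2 between arrays for the same probe set. They are relative to the other transcripts of the array, and fewer expressing cells and less RNA per cell cannot be told apart. A change was called at an adjusted p under 0.05 in a limma fit of all 22215 probe sets. Levels of different probe sets are not comparable with each other. The medians of the arrays lay between 6.69 and 6.72, and replicates of a time differed by a median of 0.06 to 0.10 per probe set. Values were less spread over probe sets at 12 h (interquartile ranges 3.63 and 3.68) than elsewhere (3.77 to 3.81). The 62 control probe sets averaged 0.23 above their 0 h level after 6 h, 0.19 after 12 h and 0.28 after 24 h, and the part of this in the results was not tested.

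Among the members, a fall of PMAIP1 was the largest change. It was already present at 6 h, had its lowest values at 12 h and was still called at 24 h. The other changes that passed were smaller, and most of them were falls as well, on both sides of the family. On the pro-apoptotic side these were probe sets of BAK1, BAX and BID, and on the anti-apoptotic side probe sets of BCL2L1 and MCL1, although the probe sets of MCL1 had no common direction. In the comparisons with 0 h only 1 probe set, of BAD, was called higher.

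The bases before the start of transcription are shown for PMAIP1, BCL2L1 and BAK1, members that passed the test over the time course, so that the sequence can be read beside their falls. They come from the RefSeq promoter table of build GRCh38.p14, which held 9 of the 10 members. MCL1 was missing from it, although its probe set 200798_x_at also passed that test. Each run covers the 250 bases upstream of an annotated start, 5′ to 3′ on the gene's strand. Capitals mark the cores of the hypoxia response element (ACGTG or GCGTG) and of the cyclic AMP response element bound by ATF proteins (TGACG), searched on both strands.
PMAIP1, chr18:59899746-59899995, plus strand: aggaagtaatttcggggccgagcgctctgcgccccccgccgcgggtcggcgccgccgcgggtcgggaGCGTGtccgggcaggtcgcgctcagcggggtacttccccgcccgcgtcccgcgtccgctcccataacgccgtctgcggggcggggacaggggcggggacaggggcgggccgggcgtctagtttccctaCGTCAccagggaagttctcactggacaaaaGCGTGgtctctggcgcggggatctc
BCL2L1, chr20:31723964-31724213, minus strand: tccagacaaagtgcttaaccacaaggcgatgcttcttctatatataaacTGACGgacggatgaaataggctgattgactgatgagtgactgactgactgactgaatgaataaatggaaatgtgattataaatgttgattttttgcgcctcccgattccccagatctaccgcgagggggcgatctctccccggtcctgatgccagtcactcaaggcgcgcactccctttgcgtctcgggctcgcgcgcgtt
BAK1, chr6:33580277-33580526, minus strand: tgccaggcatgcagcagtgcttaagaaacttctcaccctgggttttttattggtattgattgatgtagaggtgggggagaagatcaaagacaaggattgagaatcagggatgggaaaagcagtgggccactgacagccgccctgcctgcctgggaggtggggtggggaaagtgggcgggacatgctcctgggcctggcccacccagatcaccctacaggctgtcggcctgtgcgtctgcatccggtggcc

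The PMAIP1 window held GCGTG 183 and 25 bases before the start and TGACG, on the opposite strand, 55 bases before it. The BCL2L1 window held TGACG 201 bases before its start, and a second annotated start of BCL2L1 had GCGTG 64 bases before it. The BAK1 window held none of these cores. Windows of members not shown held them too, with hypoxia response cores for BBC3, BCL2L11, BID, BAD and BAX. TGACG also lay in windows of BAD, BAX and BCL2. The cores are short and common. Of 35116 windows of this length in the table, 18.5% held ACGTG, 32.2% GCGTG, 43.2% either of them and 21.2% TGACG. A match is a string of letters and no evidence that a factor binds.

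Within the BH3-only group, PMAIP1 was read by 2 probe sets. Probe set 204285_s_at stood at 9.82 and 9.80 on the 0 h arrays, 9.10 and 9.07 at 6 h, 8.92 and 8.87 at 12 h, and 9.13 and 9.19 at 24 h. All 6 hypoxic arrays lay below both 0 h arrays, and the replicates were close at every time. The change from 0 h was -0.72 ± 0.06 at 6 h (SE of the fit, limma adjusted p = 0.00103), -0.91 ± 0.06 at 12 h (adjusted p = 0.00016) and -0.64 ± 0.06 at 24 h (adjusted p = 0.00061), or 1.64-fold, 1.88-fold and 1.56-fold lower. At 6 h only 5 of the 22215 probe sets had a lower value of the change, and 27 at 12 h and 103 at 24 h.

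Probe set 204286_s_at of PMAIP1 followed a similar course. It stood at 8.27 and 8.29 at 0 h, 7.86 and 7.54 at 6 h, 7.36 and 7.24 at 12 h, and 7.81 and 7.54 at 24 h, again with no overlap between hypoxic and 0 h arrays. Its changes were -0.58 ± 0.12 at 6 h, which did not pass (limma adjusted p = 0.0568), -0.98 ± 0.12 at 12 h (adjusted p = 0.00314) and -0.60 ± 0.12 at 24 h (adjusted p = 0.0171). Both probe sets were at their lowest at 12 h. The steps between hypoxic times did not pass. From 12 to 24 h the probe sets were at 0.27 ± 0.06 (adjusted p = 0.114) and 0.38 ± 0.12 (adjusted p = 0.213), and from 6 to 24 h at 0.07 and -0.02. The calls of 204285_s_at at all 3 times, and of 204286_s_at at 12 h, held under every alternative tried. The 24 h call of 204286_s_at was lost without 0 h replicate 1, 0 h replicate 2 or 24 h replicate 2 and at a threshold of 0.01.

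**Figure D1:**
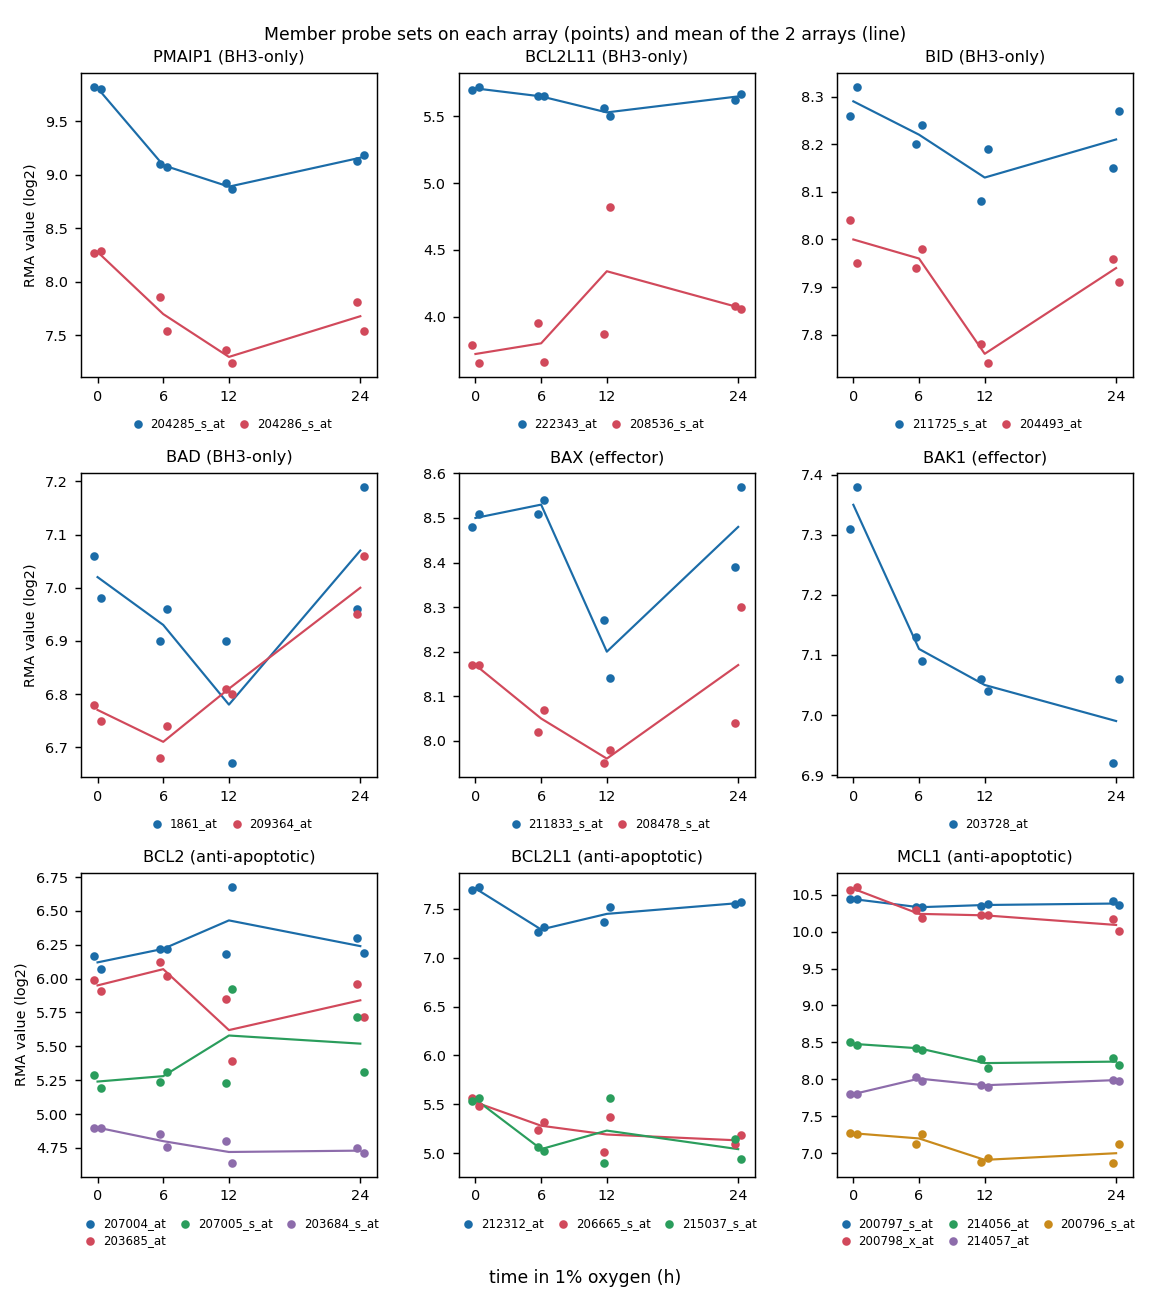
RMA values (log2, vertical axis, a scale of its own in each panel) of the 23 probe sets against time in 1% oxygen in hours. Points are single arrays, 2 a time, and lines join their means. PMAIP1 drops from 9.81 to 8.89 in 204285_s_at between 0 and 12 h, while single 12 h arrays of dim probe sets of BCL2L11, BCL2 and BCL2L1 stand apart from their replicates.

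The other BH3-only genes gave smaller changes, and few of them passed. BID, whose cleaved protein links death receptors to mitochondria, was at 8.04 and 7.95 at 0 h and at 7.78 and 7.74 at 12 h in probe set 204493_at. This fall (-0.24 ± 0.06, limma adjusted p = 0.0378) passed, and the arrays read 7.96 and 7.91 at 24 h. The second BID probe set was at -0.16 at 12 h and did not pass (adjusted p = 0.171). BAD, a sensor of growth factor signalling held back by phosphorylation, stood at 6.78 and 6.75 at 0 h and 6.95 and 7.06 at 24 h in probe set 209364_at (0.23 ± 0.06, adjusted p = 0.0422). Its other probe set, 1861_at, was at 0.06 at 24 h (adjusted p = 0.783). BCL2L11, which encodes BIM, was read by dim probe sets, at the 35.2 and 9.98 percentiles of the table, and neither passed at any time. In 222343_at BCL2L11 was at -0.06, -0.18 and -0.07 at 6, 12 and 24 h. In 208536_s_at the 12 h arrays read 3.87 and 4.82, so its 0.62 at that time rests on 12 h replicate 2.

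The BID and BAD calls were close to the threshold. That of BID was lost with further quantile normalization of the arrays, with the replicate number as a block (the replicate block), in a fit of the 0 and 12 h arrays alone and without any single 0, 6 or 12 h array. That of BAD was lost with the replicate block (adjusted p up to 0.209 over all alternatives), in a fit of the 0 and 24 h arrays alone, with a variance that follows intensity, and without any single array other than 24 h replicate 1.

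Of the effectors, BAK1 fell and stayed down. Its probe set read 7.31 and 7.38 at 0 h, 7.13 and 7.09 at 6 h, 7.06 and 7.04 at 12 h, and 6.92 and 7.06 at 24 h, with every hypoxic array below both 0 h arrays. The changes were -0.24 ± 0.07 (limma adjusted p = 0.128), -0.30 ± 0.07 (adjusted p = 0.0262) and -0.36 ± 0.07 (adjusted p = 0.0142), the last a 1.28-fold fall. BAX was called at 12 h only, in 1 of its probe sets. Probe set 211833_s_at read 8.48 and 8.51 at 0 h and 8.27 and 8.14 at 12 h (-0.29 ± 0.08, adjusted p = 0.0426), and was at -0.02 at 24 h. Its steps from 6 to 12 h (-0.32 ± 0.08, adjusted p = 0.109) and from 12 to 24 h (0.27 ± 0.08, adjusted p = 0.177) did not pass. The other BAX probe set was at -0.20 at 12 h (adjusted p = 0.154) and 0.00 at 24 h. The BAK1 call at 12 h was lost without any single 0, 6 or 12 h array, and that at 24 h without 0 h replicate 1, 0 h replicate 2 or 24 h replicate 1. The BAX call was lost with further quantile normalization, with the replicate block, in a fit of the 0 and 12 h arrays alone, and without any single 0 or 6 h array or 12 h replicate 2.

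On the anti-apoptotic side, BCL2L1, which encodes BCL-XL, was lowest at 6 h in its probe set of highest mean. Probe set 212312_at read 7.69 and 7.73 at 0 h, 7.26 and 7.32 at 6 h, 7.37 and 7.52 at 12 h, and 7.55 and 7.57 at 24 h. It fell by 0.42 ± 0.07 at 6 h (limma adjusted p = 0.0236), or 1.34-fold, and by 0.26 ± 0.07 at 12 h (adjusted p = 0.0394), and was at -0.15 at 24 h (adjusted p = 0.2). The dimmer probe sets 206665_s_at and 215037_s_at were below 0 at all 3 times, between -0.24 and -0.51, and none of these values passed. The 6 h call was lost without either 0 h or either 6 h array (adjusted p up to 0.215). The 12 h call was lost with further quantile normalization, with arrays centred on their medians, in a fit of the 0 and 12 h arrays alone, and without any single array other than 12 h replicate 2.

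MCL1, the short-lived partner of PMAIP1, had 5 probe sets that disagreed. Probe set 200798_x_at read 10.56 and 10.61 at 0 h, 10.29 and 10.19 at 6 h, 10.23 and 10.22 at 12 h, and 10.17 and 10.01 at 24 h. It was at -0.34 ± 0.07 at 6 h (limma adjusted p = 0.055) and fell by 0.36 ± 0.07 at 12 h (adjusted p = 0.0153) and by 0.50 ± 0.07 at 24 h (adjusted p = 0.0047). The suffix x marks a probe set with probes that can also bind other transcripts. Probe sets 214056_at and 200796_s_at fell at 12 h (-0.26, adjusted p = 0.0373, and -0.36, adjusted p = 0.0357). At 24 h they were at -0.24 (adjusted p = 0.0532) and -0.27 (adjusted p = 0.0928).

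The MCL1 probe set with the highest mean, 200797_s_at, was not called. It read 10.44 on both 0 h arrays and 10.33 on both 6 h arrays, and was at -0.11, -0.08 and -0.06 at the 3 times (adjusted p = 0.373, 0.369 and 0.557). Probe set 214057_at lay on the other side, at 7.80 on both 0 h arrays and from 7.90 to 8.03 on the hypoxic ones (0.21, 0.12 and 0.19, adjusted p = 0.103, 0.196 and 0.0642). The probe sets therefore gave no common direction for MCL1. The 24 h call of 200798_x_at held under every alternative that could test it. Its 12 h call was lost without either 0 h array or 12 h replicate 2. The other MCL1 calls at 12 h were lost without any single 0 or 6 h array or 12 h replicate 2, that of 200796_s_at also without 12 h replicate 1, and that of 214056_at also with further quantile normalization and in a fit of the 0 and 12 h arrays alone.

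BCL2, the founding member of the family, was read by 4 probe sets in the dimmer part of the table, at its 21.8 to 44.1 percentiles, and none of them was called at any time. Their changes lay between -0.10 and 0.12 at 6 h, between -0.33 and 0.34 at 12 h and between -0.17 and 0.28 at 24 h. In 207005_s_at the 12 h arrays read 5.23 and 5.92, and in 207004_at 6.18 and 6.68. In 203685_at they went the other way, at 5.85 and 5.39.

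**Figure D2:**
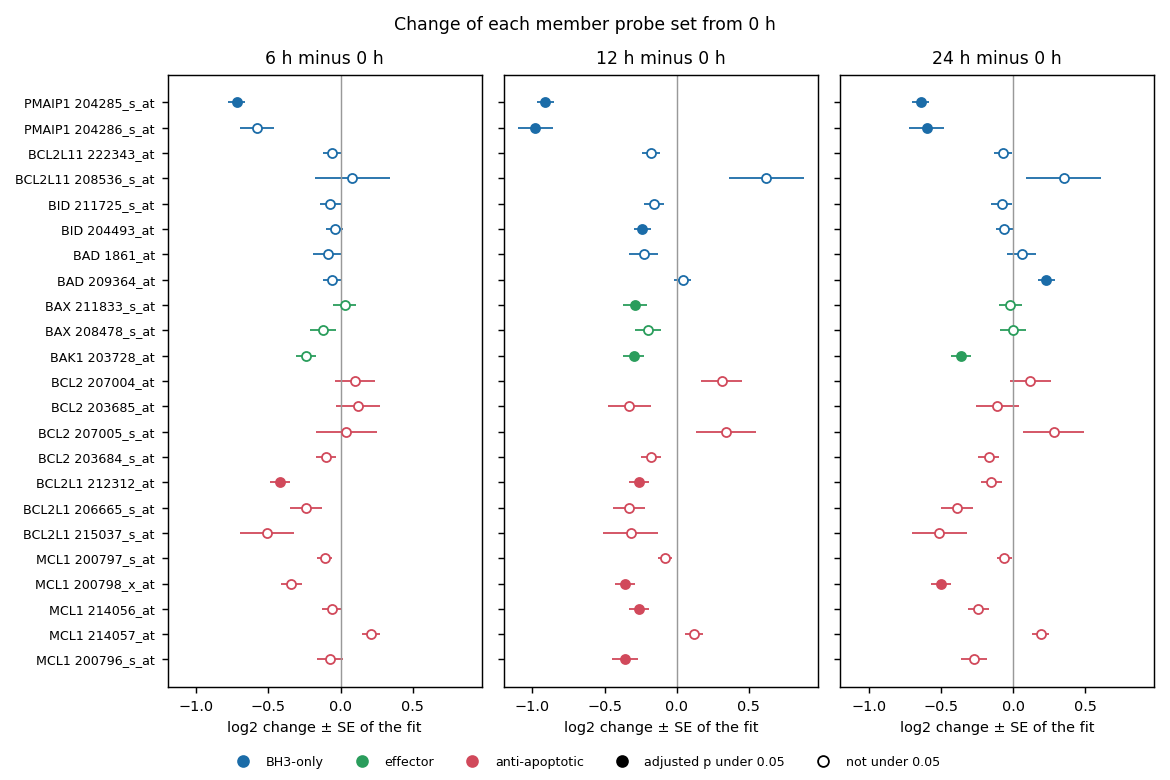
Change of each probe set from 0 h (log2, horizontal axis) at 6, 12 and 24 h, with bars of 1 standard error of the limma fit of all 8 arrays. Filled points passed an adjusted p under 0.05, and colours give the role. PMAIP1 lies farthest to the left at each time, and filled points of both the pro-apoptotic and the anti-apoptotic group lie left of 0 at 12 h.

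Counted together, 2 of 23 probe sets were called at 6 h, both lower (1 of PMAIP1 and 1 of BCL2L1), where 2.7% of all probe sets were called, 0.855% lower and 1.85% higher. At 12 h 9 were called lower and 0 higher, where 16.2% of all were called, 9.85% lower and 6.36% higher. At 24 h 4 were called lower and 1 higher, where 14.7% of all were called, 7.8% lower and 6.86% higher. In the test over the time course 5 of 23 were called (2 of them anti-apoptotic, of BCL2L1 and MCL1, and the others both probe sets of PMAIP1 and that of BAK1), where 12.6% of all were called. The median change of the 23 was -0.07, -0.24 and -0.08 at these times, against -0.02, 0.00 and -0.02 over all probe sets. Since probe sets of a gene share their transcript, these are 9 genes at most and not 23 independent readings. With further quantile normalization 1674 of all probe sets were called lower at 12 h (7.54%) and 1518 higher. With arrays centred on their medians it was 2033 lower (9.15%) and 1454 higher, against 2189 and 1413 without these steps. The member count at 12 h was 7 and 8 in these fits, all of them lower. It became 2 without either 0 h array, both of PMAIP1, where the count over all probe sets went from 3602 to 952 or 857. It became 3 without either 6 h array (2524 over all) and 5 without 12 h replicate 2 (2033 over all). The count at 24 h became 2 without either 0 h array, where that over all went from 3257 to 992 or 951. The count at 6 h became 1 without any single 0 or 6 h array, where that over all went from 600 to between 84 and 115. It became 4 without either 12 h array (650 over all) and 3 without either 24 h array (564 over all).

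Set by role, the pro-apoptotic and anti-apoptotic probe sets had medians on the same side of 0 at each time. At 6 h 1 of 11 pro-apoptotic and 1 of 12 anti-apoptotic probe sets were called lower, with medians of -0.07 and -0.08. At 12 h it was 5 of 11 and 4 of 12, with medians of -0.23 and -0.26. At 24 h it was 3 of 11 lower and 1 higher against 1 of 12 lower, with medians of -0.06 and -0.16. Of all probe sets 0.855%, 9.85% and 7.8% were called lower at these times, and 6.86% higher at 24 h. Their median changes were -0.02, 0.00 and -0.02. With 1 probe set a gene, that of highest mean, 3 of 6 pro-apoptotic genes (PMAIP1, BAX and BAK1) and 1 of 3 anti-apoptotic genes (BCL2L1) were called lower at 12 h, where 16.9% of 11963 genes in this form were called in either direction. The difference between the roles was not tested. In 10 of the 23 probe sets all 6 hypoxic arrays lay below both 0 h arrays, a pattern that 15.7% of all probe sets showed, and in 2 (of BCL2 and MCL1) they lay above, against 11.6%. The 10 are probe sets of PMAIP1, BCL2L11, BAK1, BCL2, BCL2L1 and MCL1, with more than 1 for some genes. They are not independent readings, and some, such as BCL2L11 222343_at and MCL1 200797_s_at, were called at no time.

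Between hypoxic times no member passed in the fit of all arrays. From 6 to 12 h 0 of 23 were called, where 0.117% of all were called, and 8 had an unadjusted limma p under 0.05, against 20.9% of all. From 12 to 24 h 0 were called, where 0.144% of all were called, and 7 had an unadjusted limma p under 0.05, against 16.4% of all. From 6 to 24 h 0 were called, where 1.48% of all were called, and 3 had an unadjusted limma p under 0.05, against 16.9% of all. By role, the 7 from 12 to 24 h were 7 of 11 pro-apoptotic (median 0.20) and 0 of 12 anti-apoptotic probe sets (median 0.02). From 6 to 12 h it was 4 of 11 and 4 of 12, and from 6 to 24 h 1 of 11 and 2 of 12. The difference between the roles was not tested here either.

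Relatives of the members outside the rule were counted from lists, with 1 probe set a gene. In this form 2.83% of 11963 genes were called at 6 h, 16.9% at 12 h and 15.9% at 24 h. Of 17 measured genes among other BCL2 family and BH3-like genes, 3 rose and 0 fell at 6 h, and 3 rose and 3 fell at both 12 and 24 h. BNIP3 and BNIP3L, mitophagy receptors with a BH3-like stretch and direct targets of the hypoxia-inducible factors, rose by 3.31 ± 0.07 (limma adjusted p = 5.24e-07) and 1.52 ± 0.08 (adjusted p = 4.76e-05) at 24 h. MOAP1, which encodes a protein that binds BAX, rose by 0.60 at 6 h and by 0.89 ± 0.07 at 24 h (adjusted p = 0.000458). The 6 h call of MOAP1 was lost without 0 h replicate 1, 0 h replicate 2 or 6 h replicate 1. The genes that fell were named after their values were seen. BNIP1 was at -0.49 at 12 h (adjusted p = 0.00472) and -0.27 at 24 h (adjusted p = 0.0359). BAG1 was at -0.44 (adjusted p = 0.00779) and -0.30 (adjusted p = 0.0341). BCL2L13 fell at 12 h only (-0.34, adjusted p = 0.0162) and TMBIM6 at 24 h only (-0.29, adjusted p = 0.0472). The alternatives were not run for these falls.

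Among the apoptosome and caspase genes, 2 of 16 measured rose and 0 fell at 6 h, 2 rose and 2 fell at 12 h, and 3 rose and 1 fell at 24 h. Of all genes in this form 2.83%, 16.9% and 15.9% were called at these times. APAF1, the scaffold of the apoptosome, rose by 0.59 ± 0.08 at 6 h (limma adjusted p = 0.00975), 0.75 at 12 h and 0.73 ± 0.08 at 24 h (adjusted p = 0.00121). CASP9, the caspase it activates, rose by 0.40 ± 0.06 (adjusted p = 0.0143), 0.48 and 0.50 ± 0.06 (adjusted p = 0.00176). ENDOG, a mitochondrial nuclease, rose by 0.45 at 24 h (adjusted p = 0.0105). The genes that fell, named after their values were seen, were HTRA2, which encodes a mitochondrial protease (-0.71 ± 0.10 at 12 h, adjusted p = 0.00507, and -0.42 ± 0.10 at 24 h, adjusted p = 0.0337), and CASP8, the initiator caspase of death receptors (-0.21 at 12 h, adjusted p = 0.0461). The HTRA2 call at 12 h held under every alternative, and that at 24 h was lost without any single 0 or 6 h array or 24 h replicate 1 and with the replicate block. The CASP8 call was lost with further quantile normalization, with arrays centred on their medians, with the replicate block, in a fit of the 0 and 12 h arrays alone and without any single 0, 6 or 12 h array. The 6 h calls of APAF1 and CASP9 were lost without any single 0 or 6 h array, and the ENDOG call without either 0 h array. Among 7 measured inhibitors of apoptosis and death receptor brakes, NAIP rose (0.41, 0.72 and 0.45, adjusted p = 0.0489, 0.00231 and 0.0118) and PEA15 fell at 12 and 24 h (-0.39 and -0.32, adjusted p = 0.00651 and 0.0136). Of 8 measured death receptor genes 0 passed at 6 h, 1 rose and 2 fell at 12 h, and at 24 h the TRAIL receptor gene TNFRSF10B rose by 0.40 (adjusted p = 0.00423) and TNFRSF1A fell by 0.29 (adjusted p = 0.027). The NAIP call at 6 h was lost without any single 0, 6 or 24 h array, with the replicate block and with a robust variance prior, and that at 24 h without either 0 h array or 24 h replicate 2. The PEA15 call at 12 h was lost without 0 h replicate 2, and that at 24 h without either 0 h array or 24 h replicate 1. The TNFRSF1A call was lost without any single 0 or 6 h array or 24 h replicate 1 and in a fit of the 0 and 24 h arrays alone.

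CDKN1A, which encodes a cell cycle inhibitor, fell by 0.45 at 6 h and 0.41 at 12 h (limma adjusted p = 0.013 and 0.00598) and was at -0.19 at 24 h (adjusted p = 0.0828). PLK2 fell by 0.52, 0.71 and 0.64 (adjusted p = 0.0157, 0.00187 and 0.00206). CCNG1 rose by 0.36, 0.34 and 0.38 (adjusted p = 0.0392, 0.016 and 0.0101), and DDB2, a DNA damage recognition gene, rose by 0.46 at 12 h and 0.71 at 24 h (adjusted p = 0.00445 and 0.00064). MDM2 was at 0.17, 0.00 and 0.12 with no call, and its 12 h value lay between -0.05 and 0.04 when single arrays were left out. The 6 h calls of CDKN1A and PLK2 were lost without any single 0 or 6 h array, and the 12 h call of CDKN1A without 0 h replicate 2. The CCNG1 calls were all lost without either 0 h array, that at 6 h also without any single 6 or 24 h array or with the replicate block, that at 12 h also without 12 h replicate 2 and that at 24 h also without 24 h replicate 1.

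With 1 probe set a gene, 2.83% of 11963 genes were called in either direction at 6 h, 16.9% at 12 h and 15.9% at 24 h. Of 20 measured other regulators of the members 0 rose and 4 fell at 6 h, 0 rose and 4 fell at 12 h, and 1 rose and 4 fell at 24 h. The 3 with the largest changes at 6 and 24 h are of the ATF4 branch. ATF4, its central transcription factor, fell by 0.50, 0.73 and 0.77 (limma adjusted p = 0.00952, 0.000829 and 0.000479). DDIT3, which encodes CHOP, fell by 0.63, 0.74 and 0.64 (adjusted p = 0.00501, 0.00105 and 0.00141), and TRIB3 by 0.57, 0.92 and 0.89 (adjusted p = 0.00506, 0.000235 and 0.000193). These comparisons share the 0 h arrays with those of PMAIP1, which fell by 0.72, 0.91 and 0.64, and the values stand side by side as such. The 12 and 24 h calls of the 3 genes held under every alternative, and the 6 h calls were lost without 0 h replicate 2 or 6 h replicate 1, those of ATF4 and TRIB3 also without 0 h replicate 1, and those of ATF4 and DDIT3 also without 6 h replicate 2.

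**Figure D3:**
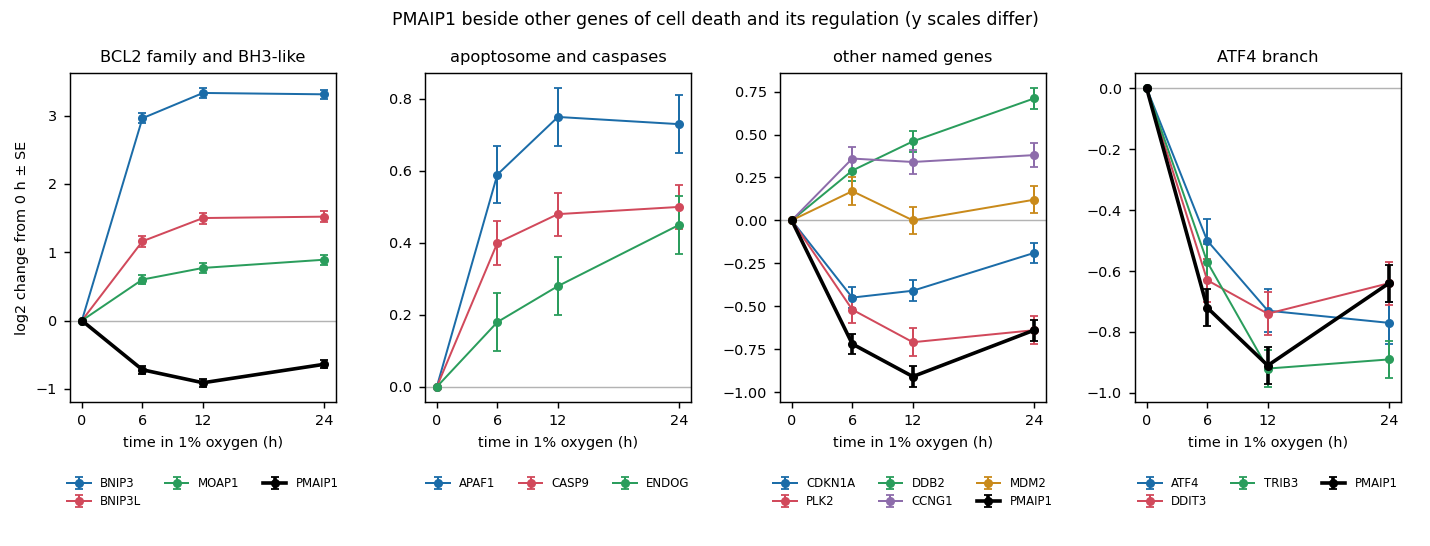
Change from 0 h (log2, vertical axis, a scale of its own in each panel) against time in 1% oxygen in hours for named genes in 4 panels, with bars of 1 standard error of the limma fit. PMAIP1 (probe set 204285_s_at, black) is drawn in every panel except that of the apoptosome and caspases, which holds APAF1, CASP9 and ENDOG. HTRA2, CASP8, BNIP1, BAG1, BCL2L13 and TMBIM6, which fell, are not drawn. BNIP3 reaches 3.31 at 24 h while PMAIP1 is at -0.64, and ATF4, DDIT3 and TRIB3 lie below 0 at all 3 times.

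Across the 8 arrays, the probe sets whose values ran most like those of PMAIP1 204285_s_at belonged to CXCL3 (Pearson r = 0.994), COA7 (0.993), PEG10 (0.992), ALG13 (0.985) and PRPF4 (0.985). They were the highest of 2429 probe sets with 1 gene symbol that passed the test over the time course. The 8 points share 4 times, so these values describe a common course and carry no test. CXCL3, a chemokine gene, was at -0.61, -0.80 and -0.56 at 6, 12 and 24 h, a course of similar size to that of PMAIP1, and PRPF4, a splicing factor gene, at -0.23, -0.32 and -0.24.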

How the data were processed

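The authors deposited log2 values of 22277 probe sets on 8 arrays of an Affymetrix platform, summarised with RMA per the submitters' processing notes (version not given in the sources used here). RMA equalises the distribution of probe values between arrays, so a change in total RNA is not visible. Labelled RNA was made from 10 µg of total RNA in 1 round of amplification, per the labels' protocols. Depth has no meaning for arrays, and their number limits the precision.

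The 62 control probe sets were left out, and the remaining 22215 were fitted with lmFit and eBayes of limma 3.58.1 under R 4.3.3 (group means of 4 times, 4 residual degrees of freedom plus a prior of 3.7), with no filter on dim probe sets. Tests were two-sided, with Benjamini-Hochberg adjustment over all 22215 within a comparison. A moderated F-test over the 3 comparisons with 0 h stands for the time course. Members kept every probe set, because the rule follows probe sets. List genes used the probe set of highest mean over the 8 arrays. Symbols came from a platform annotation of 2016, with 19070 probe sets of 1 symbol and 1043 of several, which were not named. A further 2108 were not listed, and current symbols were taken from RefSeq by gene identifier (19052 matched).

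The members, lists and alternatives were chosen with earlier results of these data known. From each list the called genes with the largest changes at 6 and at 24 h (up to 3 each) are named, and CDKN1A, MDM2, ATF4, DDIT3, BNIP3 and BNIP3L in any case. The counts of 1 list are not reported here. The fit was also run on 20 simulated data sets shaped like the 6 h comparison, with 200 changed probe sets each. Their means and spreads were taken from the arrays. It recovered 58.3% of changes of 0.5, 92.1% of changes of 1 and 99.2% of changes of 2, and 4.59% of the calls were false. Values were drawn independently, and fewer probe sets changed than the 600 called at 6 h. These rates describe the simulated setting, and those of the real comparisons can differ. Alternatives were further quantile normalization, median centring, an intensity trend or a robust prior in the variance, filters on dim probe sets, 1 probe set per gene, only the groups compared, the replicate block, a threshold of 0.01 and each array left out in turn. Those for the named pathway genes were chosen after seeing the data.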

Additional observations from a re-analysis of the deposited data

Results flagged for a closer look

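Among the named genes, the change of DDB2 from 0 h differed between 6 and 24 h. It was 0.29 at 6 h and 0.71 at 24 h, a difference of 0.42 ± 0.06 (limma adjusted p = 0.0285, from 0.0138 to 0.201 over the alternatives), and both 24 h arrays were above both 6 h arrays. The call was lost without any single 0, 6 or 24 h array, with the replicate block and in a fit of the 6 and 24 h arrays alone. No member differed in this way.

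The 62 control probe sets, which include RNA added during preparation and some housekeeping transcripts and were outside the fit, were higher on all hypoxic arrays than at 0 h. Their mean was 9.5 and 9.52 on the 0 h arrays and from 9.69 to 9.81 on the hypoxic arrays, a difference of 0.23 at 6 h, 0.19 at 12 h and 0.28 at 24 h. The groups of 2 arrays are too small for a search for single outlying arrays.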

How the results depend on the processing

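No called change of a member, or of a named gene for which the alternatives were run, turned its direction under any alternative. For the members this was largely fixed in advance. Arrays of the times compared did not overlap in any called member change, so leaving out 1 array could not turn it. Most other alternatives change only the estimated spread, the probe sets entered or the threshold. Only further quantile normalization and median centring could have turned a direction. Counts of calls are given as members and then as all probe sets, out of 23 and 22215, or 21 and 16661 without the dimmest 25% of probe sets, 15 and 11108 without the dimmer 50%, and 9 and 11963 with 1 probe set per gene. The cause of their shifts was not tested. At 6 h 2 members and 600 probe sets were called. This became 4 and 1911 where the variance was let follow intensity, 4 and 1051 on leaving out the dimmest 25% of probe sets, 6 and 2077 on leaving out the dimmer 50%, and 1 and 170 at an adjusted p under 0.01. With only the groups compared it was 5 and 793. At 12 h (9 and 3602) the counts were 4 and 2202 with 1 probe set per gene, 5 and 2294 with only the groups compared, and 2 and 1161 at 0.01. At 24 h (5 and 3257) they were 2 and 2123 with 1 probe set per gene, 2 and 1228 at 0.01, 8 and 4063 without the dimmest 25%, and 8 and 4495 without the dimmer 50%. For the time course (5 and 2796) they were 3 and 1940 with 1 probe set per gene, 8 and 5533 with the trend, 9 and 4070 without the dimmest 25%, 11 and 5102 without the dimmer 50%, and 1 and 678 at 0.01.

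Between hypoxic times, where 0 members were called, the counts were most open to these choices. From 6 to 12 h (26 probe sets) they were 3 and 1241 with the trend, 0 and 236 without the dimmest 25%, 5 and 1229 without the dimmer 50%, and 0 probe sets with only the groups compared, with the block or at 0.01. From 12 to 24 h (32) they were 1 and 711 with the trend, 0 and 185 without the dimmest 25%, 2 and 710 without the dimmer 50%, 74 with further quantile normalization, 62 with arrays centred on their medians, and 0 with only the groups compared, with the block or at 0.01. From 6 to 24 h (328) they were 1 and 1568 with the trend, 1 and 768 without the dimmest 25%, 2 and 1538 without the dimmer 50%, 171 with only the groups compared, and 62 at 0.01.

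The replicate numbers did not pair the arrays. The correlations of deviations between arrays of the same number lay between -0.13 and 0.08. With the number as a replicate block 3, 7 and 4 members and 334, 2880 and 2635 probe sets were called at 6, 12 and 24 h, and 129 probe sets from 6 to 24 h. Over the time course 4 members and 1881 probe sets were called with the block.

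When single arrays were left out, members called ranged from 1 to 4 at 6 h, 2 to 9 at 12 h, 2 to 7 at 24 h and 1 to 11 over the time course, and from 0 to 5, 0 to 2 and 0 to 0 from 6 to 12, 12 to 24 and 6 to 24 h. All probe sets called ranged from 84 to 650, 857 to 3949, 951 to 3516 and 417 to 3668, and from 0 to 1117, 0 to 302 and 19 to 452. In such a fit the lone array is taken to vary like the other groups. Values without a call that changed sign were BID 204493_at (-0.08 to 0.01), BCL2 207005_s_at (-0.02 to 0.09) and BCL2L11 208536_s_at (-0.07 to 0.23) at 6 h, BCL2 207005_s_at (-0.01 to 0.68), BCL2L1 215037_s_at (-0.65 to 0.01) and MDM2 (-0.05 to 0.04) at 12 h, and at 24 h BAX 208478_s_at (-0.13 to 0.13), BAX 211833_s_at (-0.11 to 0.07), BAD 1861_at (-0.06 to 0.17) and BCL2 203685_at (-0.23 to 0.01). PMAIP1 204286_s_at from 6 to 24 h ranged from -0.18 to 0.13. With arrays centred on their medians, BAX 208478_s_at at 24 h (0.00) and MDM2 at 12 h (0.01) changed sign.

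The study has 2 arrays a time, so changes under about the spread of dim probe sets, such as those of BCL2, could not be resolved, and signal over background was not analysed here. RNA was measured and not protein.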

Other observations

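For 2 list genes another probe set was called lower, while the value used lay slightly above 0 and was not called. CASP6, an executioner caspase gene, was at 0.10 at 12 h in the probe set used (limma adjusted p = 0.395), while another of its probe sets fell by 0.31 (adjusted p = 0.0481). HUWE1, which encodes a ubiquitin ligase that acts on MCL1, was at 0.01 at 24 h in the probe set used (adjusted p = 0.903) and fell by 0.41 in another (adjusted p = 0.00569). No other gene of the pathway lists had a probe set called in the direction opposite to the value used at 6, 12 or 24 h.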
